A study of Homo sapiens with 12 samples.

Results

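CSPG4, GAS6, PLP2 and TSPOAP1 are 4 genes whose mRNA response to JOA (Jiyuan oridonin A, a diterpenoid) differed between the human leukemia cell lines MOLM-13 and THP-1. They were chosen from these data: a fit of all 12 libraries with control and JOA libraries paired by replicate number called 6 of 12626 genes (0.0475%) for a difference in JOA response between the lines, and the 4 genes are among those 6, out of 20030 genes in the whole table. Both lines come from acute myeloid leukemia and carry an MLL rearrangement. MOLM-13 cells also carry the FLT3 internal tandem duplication, while THP-1 cells have wild-type FLT3. Each line had 3 control libraries from cells given DMSO and 3 libraries from cells given JOA, at 0.5 μM in MOLM-13 cells and 2 μM in THP-1 cells. The labels and methods give an incubation of 48 h, while a legend of the study gives a longer time for the sequencing, which leaves the time in doubt. Cell line and dose therefore cannot be told apart in any difference between the lines' responses. Each line is a single established line grown in culture, and the labels do not say whether the libraries of a group came from separate cultures, so the p-values measure only the spread between these libraries, which may be technical.

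The genes code for proteins of different kinds. CSPG4 is a transmembrane chondroitin sulfate proteoglycan, also known as NG2, whose presence on leukemic blasts is used as a surface marker of MLL-rearranged leukemia. GAS6 is a secreted ligand that needs vitamin K-dependent carboxylation and activates the TAM receptor tyrosine kinases TYRO3, AXL and MERTK. PLP2 is a small proteolipid of cell membranes with a MARVEL domain, a membrane-spanning fold found in proteins of vesicle traffic and cell junctions. TSPOAP1 is a RIM-binding protein, known from synapses, which was also found as a partner of TSPO, the cholesterol-binding translocator protein of the outer mitochondrial membrane.

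On the human genome build GRCh38 with the GENCODE annotation, CSPG4 lies on the minus strand of chromosome 15 from 75674322 to 75712848, and its longest coding transcript has 10 exons and 8290 bases. Of the 8141 windows of 150 bases in that transcript, 4.53% also occur in 2 other annotated genes, so some of its reads can belong to another gene. The share of reads is not known from this, since it also depends on the level of those genes. GAS6 lies on the minus strand of chromosome 13 from 113820549 to 113864067, with 15 exons and a transcript of 2490 bases. PLP2 lies on the plus strand of chromosome X from 49171926 to 49175239, with 5 exons and 1079 bases. TSPOAP1 lies on the minus strand of chromosome 17 from 58301228 to 58328760, with 31 exons and 7483 bases. For these 3 genes, 0 windows occur in another gene. CSPG4 is overlapped by the annotated antisense genes AC105020.4 and AC105020.1, GAS6 by GAS6-AS1 and TSPOAP1 by TSPOAP1-AS1. AC105020.4 is also among the 2 genes that share windows with CSPG4, so these limits are partly the same. Whether counting used strand is not stated, and without it reads of a gene and its antisense partner cannot be told apart.

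The libraries were like one another within a line, with correlations of log2 values between 0.988 and 0.997. The values are FPKM, fragment numbers divided by transcript length and by library size, so that levels can be compared between genes. The total depth of the libraries is unknown. The relative depth estimated from low values ranged from 0.894 to 1 in MOLM-13 and from 0.932 to 1.07 in THP-1. The identity of the cells was checked against markers: 9 of 10 myelomonocytic genes had a mean of at least 1 FPKM in every group, with summed levels of 1195 to 3736 FPKM per library, and CD14 was the marker below 1. The summed levels of 4 T cell markers reached 3.79 FPKM in MOLM-13 and 0.0257 in THP-1, those of 4 B cell markers 1.71 and those of 4 fibroblast markers 1.07. Epithelial markers summed to between 7.75 and 9.9997 FPKM in MOLM-13 and between 0.649 and 4.87 in THP-1. All of these are small beside the myelomonocytic sums, but LYZ alone, at 755 to 3292 FPKM, made up most of those sums. In MOLM-13 the epithelial sums exceeded single myelomonocytic markers such as CSF1R, at 4.30 to 5.80 FPKM.

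The plainest feature of the 4 genes is that every one was higher in MOLM-13 than in THP-1, whichever treatment is considered. By group, JOA and control libraries overlapped in MOLM-13 for each gene, where 9.65% of genes did not overlap. In THP-1 they overlapped for CSPG4 and PLP2 but not for GAS6 and TSPOAP1, where 8.81% of genes had JOA all below control. By pair, the JOA library held less CSPG4, GAS6 and TSPOAP1 and more PLP2 than the control in all 3 THP-1 pairs. Of all genes, 19.4% were lower and 29.3% higher in this way. In all 3 MOLM-13 pairs CSPG4 was lower (15.7% of genes) and GAS6 and TSPOAP1 higher (18.5%), while PLP2 pointed both ways. CSPG4 had the lowest mean of the 4 in every group, and PLP2 had the highest in every group except THP-1 control, where GAS6 did. In control MOLM-13 cells PLP2 exceeded 98.3% of the genes in the table, GAS6 exceeded 96.6%, TSPOAP1 86.3% and CSPG4 73.9%, and in control THP-1 cells the shares were 90.4%, 94.1%, 71.3% and 49.2%.

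**Figure D1:**
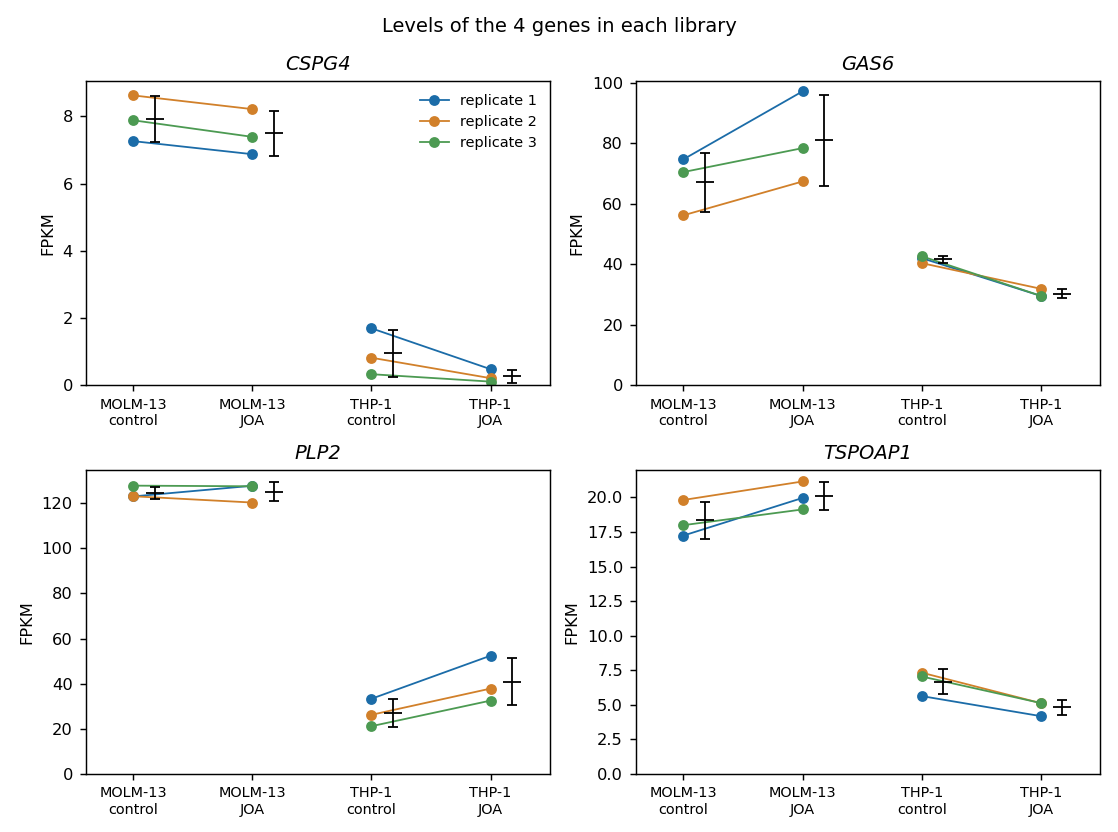
Levels of CSPG4, GAS6, PLP2 and TSPOAP1 in FPKM (vertical axes, linear, from 0) in the 12 libraries, by group; colored points are libraries, lines join control and JOA libraries with the same replicate number, and black bars give the mean ± SD of 3 libraries. All MOLM-13 libraries lie above all THP-1 libraries for each gene, and within THP-1 the JOA point of each pair is lower for CSPG4, GAS6 and TSPOAP1 and higher for PLP2.

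CSPG4, the surface proteoglycan, measured 7.27, 8.63 and 7.89 FPKM in MOLM-13 control replicates 1, 2 and 3. With JOA the MOLM-13 libraries measured 6.88, 8.22 and 7.39 FPKM. The means were 7.93 ± 0.682 and 7.50 ± 0.677 FPKM (SD, n = 3 each), so the groups overlapped widely, although the JOA library was the lower of each pair. In THP-1 cells CSPG4 was scarce, at 1.69, 0.813 and 0.323 FPKM in the control libraries. The THP-1 JOA libraries measured 0.471, 0.204 and 0.102 FPKM. The means were 0.942 ± 0.692 and 0.259 ± 0.191 FPKM, and the groups overlapped because control replicate 3 lay below JOA replicate 1. The THP-1 replicates were unlike one another. The highest control library held 5.24 times the lowest and the highest JOA library 4.63 times, where the median gene differed 1.15 times in both groups. Within pairs of the same replicate number the JOA to control ratio was nevertheless narrow, at 0.279, 0.251 and 0.315.

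GAS6, the TAM receptor ligand, measured 74.6, 56.1 and 70.4 FPKM in MOLM-13 control libraries. The MOLM-13 JOA libraries measured 97.1, 67.3 and 78.3 FPKM. The mean went from 67.0 ± 9.70 to 80.9 ± 15.1 FPKM, with the JOA library higher in each pair and the groups overlapping. In THP-1 the controls were close together, at 42.0, 40.3 and 42.6 FPKM. The THP-1 JOA libraries measured 29.5, 31.8 and 29.5 FPKM. Here the means were 41.6 ± 1.18 and 30.2 ± 1.36 FPKM and the groups did not overlap. The pair ratios were 1.30, 1.20 and 1.11 in MOLM-13 and 0.702, 0.790 and 0.692 in THP-1, above 1 in each MOLM-13 pair and below 1 in each THP-1 pair.

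PLP2, the MARVEL domain proteolipid, was nearly level across MOLM-13, at 123.1, 123.1 and 127.8 FPKM in controls. The MOLM-13 JOA libraries measured 127.8, 120.3 and 127.6 FPKM. The means were 124.7 ± 2.74 and 125.2 ± 4.24 FPKM, and the pairs pointed in both directions. THP-1 controls measured 33.3, 26.1 and 21.1 FPKM. The THP-1 JOA libraries measured 52.4, 37.8 and 32.5 FPKM. The means were 26.8 ± 6.11 and 40.9 ± 10.3 FPKM, and the groups overlapped only in that JOA replicate 3 lay just below control replicate 1. As for CSPG4, replicate 1 was highest and replicate 3 lowest in both THP-1 groups, and the pair ratios were close, at 1.57, 1.45 and 1.54.

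TSPOAP1, the RIM-binding protein, measured 17.2, 19.8 and 17.99 FPKM in MOLM-13 controls. The MOLM-13 JOA libraries measured 20.0, 21.2 and 19.1 FPKM. The mean went from 18.3 ± 1.33 to 20.1 ± 1.02 FPKM, with JOA higher in each pair and the groups overlapping. THP-1 controls measured 5.62, 7.32 and 7.04 FPKM. The THP-1 JOA libraries measured 4.17, 5.11 and 5.12 FPKM. The means were 6.66 ± 0.909 and 4.80 ± 0.545 FPKM without overlap, and the pair ratios were 1.16, 1.07 and 1.06 in MOLM-13 and 0.742, 0.698 and 0.727 in THP-1.

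**Figure D2:**
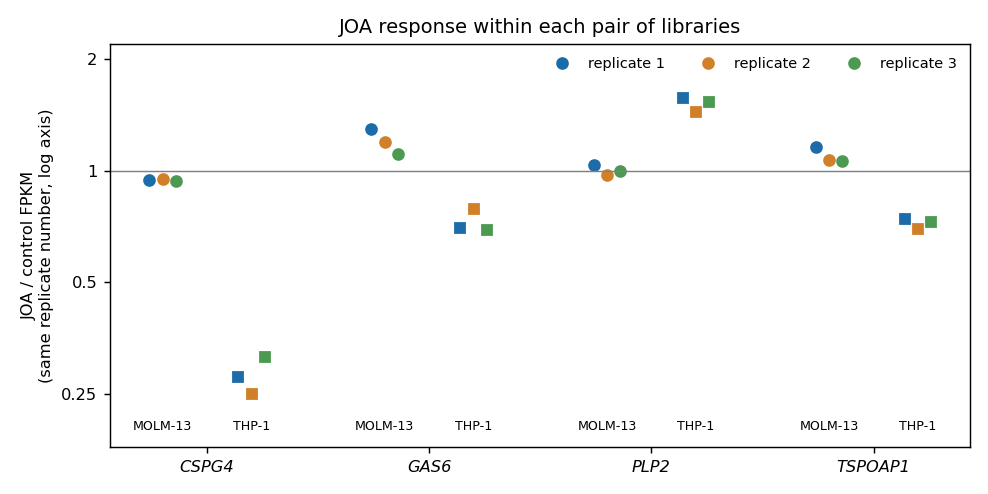
JOA to control ratio of FPKM within each pair of libraries that share a replicate number (vertical axis, log scale; the line marks a ratio of 1), for the 4 genes; circles are MOLM-13, squares THP-1, and colors the replicate number. The THP-1 squares lie below 1 for CSPG4, GAS6 and TSPOAP1 and above 1 for PLP2, while the MOLM-13 circles range from 0.937 to 1.30.

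Ordered by mean level, both MOLM-13 groups came before both THP-1 groups for all 4 genes. The MOLM-13 groups overlapped each other for each gene, where 9.65% of 11693 genes tested in that line did not overlap. The THP-1 groups overlapped for CSPG4 and PLP2 and were separate for GAS6 and TSPOAP1. Among all 12712 genes tested in THP-1, 8.81% had every JOA library below every control library, which puts GAS6 and TSPOAP1 in a common class on that measure. A level lower in all 3 THP-1 pairs, as for CSPG4, GAS6 and TSPOAP1, was found for 19.4% of the genes, and one higher in all 3 pairs, as for PLP2, for 29.3%. In MOLM-13, 15.7% of genes were lower in all 3 pairs, as CSPG4 was, and 18.5% were higher in all 3, as GAS6 and TSPOAP1 were. The pair directions alone are thus shared with many genes.

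The contrast that chose the genes is given as a description, with no test. On the log2(FPKM + 0.1) scale, which understates changes at low levels, the THP-1 response minus the MOLM-13 response was -1.35 for CSPG4 (SE 0.16 with pairing), -0.72 for GAS6 (SE 0.08), 0.59 for PLP2 (SE 0.05) and -0.59 for TSPOAP1 (SE 0.07). The MOLM-13 parts of these differences were -0.08, 0.26, 0.01 and 0.13, and the THP-1 parts -1.43, -0.46, 0.60 and -0.46, in the same order. The THP-1 part was thus the larger for each gene. For GAS6 the MOLM-13 part was 0.13 without MOLM-13 JOA replicate 1, 0.14 without MOLM-13 control replicate 2 and 0.39 without MOLM-13 JOA replicate 2. The CSPG4 difference was -0.85 without THP-1 control replicate 1 and -0.50 with a pseudocount of 1, and its response in THP-1 was then -0.93 and -0.58. Pairing narrowed the errors most where the THP-1 replicates were unlike. Without pairing the SE was 0.62 for CSPG4, 0.23 for PLP2, 0.17 for GAS6 and 0.15 for TSPOAP1. Ranked by p without pairing, the genes stood at places 914, 531, 42 and 57 of 12626, and limma then called 0 genes for this contrast, with 914 genes (7.24%) at an unadjusted p under 0.05.

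Just inside the threshold of adjusted p under 0.05 (limma, paired, Benjamini-Hochberg) stood CSPG4 at 0.0473 and TSPOAP1 at 0.0396, then GAS6 at 0.0326 and PLP2 at 0.0168. The other 2 called genes were RFLNB, a refilin that binds filamin, with a difference of 0.71, and TRIB3, a stress-induced pseudokinase, with 0.83. The nearest genes outside were CDKN1A, the cell cycle inhibitor p21, with -0.42, and PLAC8 with -0.50, both at 0.0659. The list therefore ends at a threshold with close neighbours on either side, and its calls depended on single pairs. The paired fit called 6 genes without MOLM-13 pair 1, 0 without MOLM-13 pair 2 or 3, and 2, 0 and 1 without THP-1 pair 1, 2 and 3.

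The mean of the responses of both lines is another contrast than the difference that chose the genes. Averaged over lines, CSPG4 differed by -0.76 with JOA (SE 0.31, log2) and did not pass the test without pairing (limma, adjusted p = 0.302), where 0.19% of all genes passed, 0.0238% lower and 0.166% higher with JOA. The value for CSPG4 was -0.50 without THP-1 control replicate 1 and -0.32 with a pseudocount of 1. PLP2 differed by 0.30 (SE 0.12; limma, adjusted p = 0.274) and TSPOAP1 by -0.17 (SE 0.08; limma, adjusted p = 0.357). GAS6, whose responses were of opposite sign, averaged -0.10 (SE 0.09; limma, adjusted p = 0.672). In numbers, 0 of the 4 genes passed without pairing. With pairing the SE was 0.08 for CSPG4, 0.03 for PLP2, 0.03 for TSPOAP1 and 0.04 for GAS6, and 5.52% of all genes passed, 1.42% lower and 4.1% higher. The genes were chosen in that paired fit, in part for a small paired error in the same responses, so no test of the 4 genes is drawn from it.

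The difference between the lines was much larger than the spread between replicates for each gene, again in a contrast separate from the one that chose them. Over both treatments CSPG4 was 14.5-fold lower in THP-1 than in MOLM-13 on the log2(FPKM + 0.1) scale (log2 difference -3.86, SE 0.31; limma, adjusted p = 1.25e-07). That size depended on the pseudocount, with a log2 difference of -2.51 for a pseudocount of 1 and -4.20 for 0.01. PLP2 was 3.83-fold lower (-1.94, SE 0.12; limma, adjusted p = 7.55e-09). TSPOAP1 was 3.37-fold lower (-1.75, SE 0.08; limma, adjusted p = 2.79e-10). GAS6 was 2.05-fold lower (-1.04, SE 0.09; limma, adjusted p = 1.79e-07). All 4 passed this test in the same direction, where 19.2% of 12626 genes were called lower in THP-1, and 28.1% of genes had every MOLM-13 library above every THP-1 library as these 4 did. The gap between the lines also differed by treatment, as the choice of genes implies. From control to JOA, the MOLM-13 to THP-1 ratio of mean FPKM went from 8.42 to 28.96 for CSPG4, from 1.61 to 2.67 for GAS6 and from 2.76 to 4.19 for TSPOAP1, and it narrowed from 4.65 to 3.06 for PLP2.

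The unlike THP-1 replicates touch these values. CSPG4 and PLP2 shared an order in the THP-1 control libraries, with replicate 1 highest and replicate 3 lowest. The other chosen genes did not share it, since TSPOAP1 was lowest in replicate 1 and GAS6 highest in replicate 3. In bulk RNA, fewer cells that make a transcript and less transcript per cell cannot be told apart. The part of such differences between replicates in the paired results was not tested.

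The relatives and partners of GAS6 had another distribution over the lines. TAM receptors are activated by GAS6 and by PROS1 (protein S). Apart from GAS6 all 4 genes of the system were called higher in THP-1 (limma), where 25.8% of all genes were. MERTK averaged 0.0159 and 0.0314 FPKM in MOLM-13 control and JOA, below the minimum mean of the fit. It entered the fit only through its THP-1 level, so its direction was set by that filter. Only PROS1, TYRO3 and AXL could have been called in either direction. PROS1 averaged 2.502 ± 0.156 FPKM in MOLM-13 control and 10.4 ± 0.259 in THP-1 control libraries. Among the receptors, TYRO3 averaged 0.856 and 2.24 FPKM, AXL 0.682 and 2.03, and MERTK 0.0159 and 0.546, in the same groups. The ligand GAS6, at 67.0 and 41.6 FPKM, was therefore far more abundant per length than PROS1 or any receptor in both lines and had the opposite direction between them.

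JOA in THP-1 was tested for these relatives, which the rule did not choose. The list was however drawn up with earlier results of these data known, and the libraries are the same. With pairing, 2 of 4 TAM genes rose at adjusted p under 0.05, where 5.37% of all genes rose and 2.69% fell, and 0 passed without pairing. PROS1 went from 10.4 to 12.4 FPKM (log2 0.24, SE 0.05; limma, adjusted p = 0.0273 paired and 0.0818 unpaired). MERTK, the receptor best known for clearance of dying cells, measured 0.309, 0.603 and 0.728 FPKM in control and 0.480, 1.07 and 1.88 with JOA. It was higher in each pair but the groups overlapped (log2 0.83; limma, adjusted p = 0.0301 paired and 0.386 unpaired), and its change also exceeded 0.58, where 0.637% of all genes tested rose by that much and passed. The change was 0.41 without THP-1 JOA replicate 3, 0.53 without THP-1 control replicate 1, 1.30 without THP-1 JOA replicate 1 and 0.43 with a pseudocount of 1. Neither call held without every pair, since leaving out THP-1 pair 3 raised the paired adjusted p (limma) to 0.0965 for MERTK and 0.0835 for PROS1, and leaving out pair 2 raised that of PROS1 to 0.0885. TYRO3 averaged 2.41 FPKM with JOA (adjusted p = 0.473, limma, paired) and AXL 1.75 (adjusted p = 0.351, limma, paired). In THP-1, then, each JOA library held less GAS6 and more PROS1 than its paired control. The median log2 change of the 4 relatives in THP-1 was 0.17, against 0.02 for all genes.

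**Figure D3:**
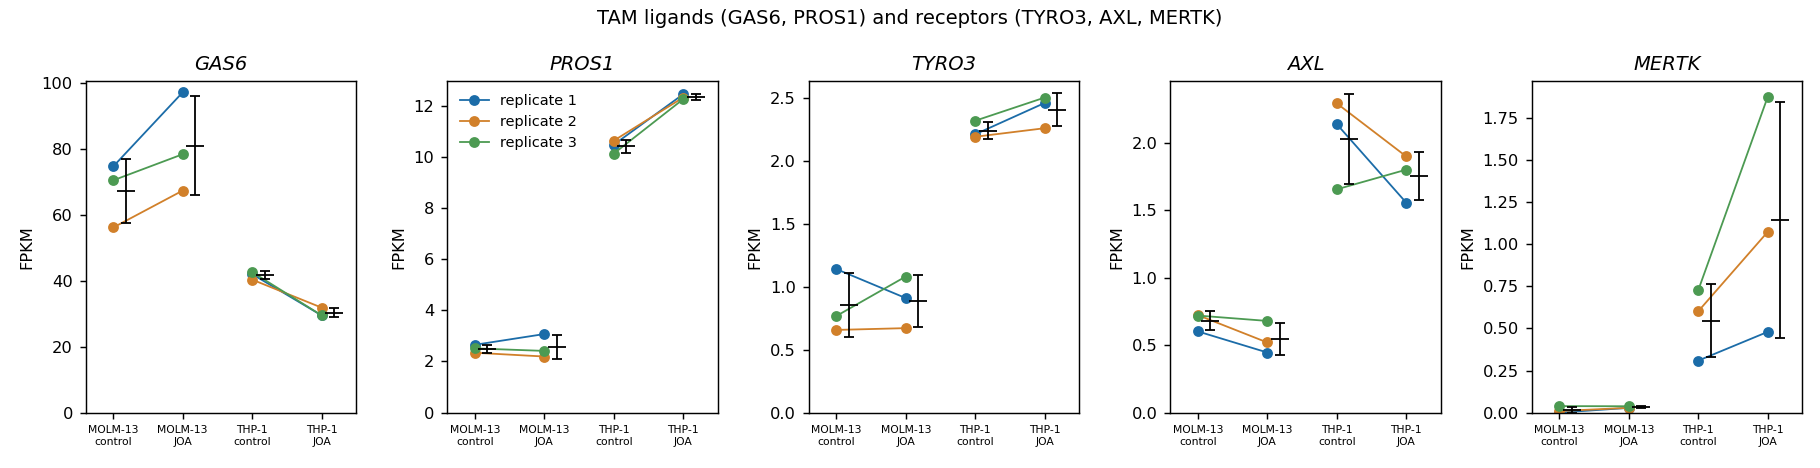
FPKM (vertical axes, linear, each with its own range from 0) of the TAM ligands GAS6 and PROS1 and the receptors TYRO3, AXL and MERTK in the 12 libraries; colored points are libraries, lines join libraries with the same replicate number, and bars give the mean ± SD of 3 libraries. GAS6 alone is higher in MOLM-13, and in THP-1 it is lower with JOA where PROS1 goes from a mean of 10.4 to 12.4 FPKM.

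In the vitamin K cycle, which supplies the carboxylation that GAS6 and PROS1 need, 1 of 5 genes passed in THP-1 with pairing, where 5.37% of all genes rose. It was NQO1, a quinone reductase, which rose by 0.42 (log2, SE 0.05; limma, adjusted p = 0.00792 paired and 0.0543 unpaired). Its log2 change in MOLM-13 was 0.21 (paired SE 0.12). In MOLM-13, 0 genes of this or any other list below passed with or without pairing (limma), where 481 of all genes (4.11%) had an unadjusted p under 0.05 without pairing, 1295 (11.1%) had one with it, and 0 passed the adjusted threshold.

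In the list of TSPO and mitochondrial cholesterol import, 3 of 9 tested genes were called lower and 2 higher in THP-1 than in MOLM-13. These calls (limma) needed an adjusted p under 0.05 and a log2 difference of at least 0.58, and 19.2% of all genes were called lower and 25.8% higher. At adjusted p under 0.05 alone, 4 were lower and 5 higher, where 10359 of 12626 genes had an unadjusted p under 0.05. The median log2 difference was 0.16 against 0.07 for all genes. TSPO averaged 96.2 ± 4.76 FPKM in MOLM-13 control and 62.6 ± 4.07 in THP-1 control libraries. In THP-1 it went to 51.5 ± 2.00 with JOA (log2 -0.28, SE 0.06; limma, adjusted p = 0.0323 paired and 0.0877 unpaired). STAR, the cholesterol carrier of steroid-producing mitochondria, averaged 58.6 FPKM in MOLM-13 and 16.4 in THP-1 controls, and with JOA went to 58.2 and 12.7 (THP-1 log2 -0.36, SE 0.05; limma, adjusted p = 0.00950 paired and 0.109 unpaired). DBI, the acyl-CoA-binding ligand of TSPO, changed by -0.23 in THP-1 (limma, adjusted p = 0.0203 paired and 0.200 unpaired). These were the 3 of 9 tested genes of the list that passed with pairing, all lower, where 2.69% of all genes fell and 5.37% rose, and 0 of 9 also reached an absolute log2 change of 0.58. STAR passed without each pair in turn, while the paired adjusted p (limma) of TSPO was 0.0843 without THP-1 pair 3 and that of DBI 0.0946 without pair 2. The MOLM-13 log2 changes were 0.09 for TSPO, -0.01 for STAR and 0.12 for DBI. Among 4 tested RIM-binding proteins and partners, 0 passed in THP-1, and RIMS3, which belongs to the RIM family at synapses, averaged 0.146 FPKM in MOLM-13 and 9.39 in THP-1 controls.

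Of 10 tested binding partners and proteases of CSPG4, 2 rose and 0 fell in THP-1 with pairing, where 5.37% of all genes rose and 2.69% fell. SDCBP (syntenin, a PDZ scaffold that binds the CSPG4 tail) rose by 0.43 (limma, adjusted p = 0.00774 paired and 0.0459 unpaired). With the 4 chosen genes left out of the lists, it was the only listed gene that passed in THP-1 without pairing, where 0.189% of genes rose. That unpaired call was lost when any THP-1 library was left out (limma, adjusted p from 0.0754 to 0.219), and the paired call was kept without each pair. ADAM10, a protease that cleaves the CSPG4 ectodomain, rose by 0.23 (limma, adjusted p = 0.0233 paired and 0.0877 unpaired). Among 15 tested enzymes of chondroitin sulfate synthesis, CSGALNACT2, which starts the chain, rose by 0.40 (limma, adjusted p = 0.0203 paired and 0.104 unpaired). Among 4 other tested proteoglycan core proteins, SRGN (serglycin, of secretory granules) rose by 0.35 (limma, adjusted p = 0.0162 paired and 0.121 unpaired). Without THP-1 pair 2 the paired adjusted p (limma) was 0.0961 for ADAM10 and 0.0823 for SRGN. These responses were not all particular to THP-1. The MOLM-13 log2 changes were 0.19 for SDCBP, -0.03 for ADAM10, 0.06 for CSGALNACT2 and 0.30 for SRGN (paired SE 0.07).

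Of 14 tested MARVEL domain relatives of PLP2, 2 rose and 2 fell in THP-1 with pairing, where 5.37% of all genes rose and 2.69% fell. OCLN (occludin, of tight junctions) went from 0.994 to 1.62 FPKM (log2 0.65; limma, adjusted p = 0.0182 paired and 0.105 unpaired) and CMTM7 rose by 0.28 (limma, adjusted p = 0.0238 paired and 0.0888 unpaired). SYNGR1 (synaptogyrin, of vesicles) went from 2.10 to 1.17 FPKM (log2 -0.80; limma, adjusted p = 0.0186 paired and 0.0805 unpaired) and CMTM3 fell by 0.27 (limma, adjusted p = 0.0292 paired and 0.0978 unpaired). OCLN and SYNGR1 also exceeded a change of 0.58 in size, where 0.637% of all genes tested rose and 0.629% fell past both thresholds. With a pseudocount of 1 their changes were 0.39 and -0.51. The paired calls were kept without each pair except for CMTM7 (limma, adjusted p = 0.0796 without THP-1 pair 2 and 0.0701 without pair 3). The relatives that passed thus had no common direction. Of the partners of PLP2, the chemokine receptor CCR1 went from 14.1 to 17.7 FPKM (log2 0.33; limma, adjusted p = 0.0242 paired, 0.0591 without THP-1 pair 2 and 0.355 unpaired) and the endoplasmic reticulum protein BCAP31 differed by 0.14 (limma, adjusted p = 0.0748 paired). The change of CCR1 was 0.15 without THP-1 control replicate 1. The MOLM-13 log2 changes were 0.26 for OCLN, 0.22 for CMTM7, -0.09 for SYNGR1, -0.03 for CMTM3, 0.11 for CCR1 and 0.16 for BCAP31. None of the genes on these lists passed the test for a difference in response between the lines with pairing (0 genes, limma, adjusted p).

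The genes nearest in pattern to each of the 4 were found by the root mean square difference, over the 12 libraries, of log2(FPKM + 0.1) minus the control mean of the line, among 10066 genes. These are descriptions over libraries that share their lines and replicate numbers. TSPOAP1 was nearest to FLT3, the receptor tyrosine kinase, at 0.0990, followed by HLA-B at 0.107 and the kinase MATK at 0.118, where the median gene stood at 0.304. FLT3 averaged 88.2 and 91.0 FPKM in MOLM-13 control and JOA and 15.7 and 11.6 in THP-1. PLP2 was nearest to FMNL1, a formin of blood cells, at 0.0979, then THAP8 at 0.137 and SERPINI1 at 0.145. FMNL1 differed with JOA by 0.04 in MOLM-13 and by 0.51 in THP-1 (log2). GAS6 had NDUFB1 at 0.142, ZNF556 at 0.144 and ATP5ME at 0.149, of which NDUFB1 and ATP5ME code for small subunits of mitochondrial complexes. CSPG4 had NOG (noggin) at 0.310, DEFA4, a defensin listed at 0 in both MOLM-13 groups, at 0.449 and UGT3A2 at 0.454. These distances are larger, but so was that of the median gene, at 0.909 from CSPG4 against 0.366 from PLP2 and 0.330 from GAS6. NOG was scarce in THP-1, at means of 0.232 and 0.0355 FPKM in control and JOA.

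**Figure D4:**
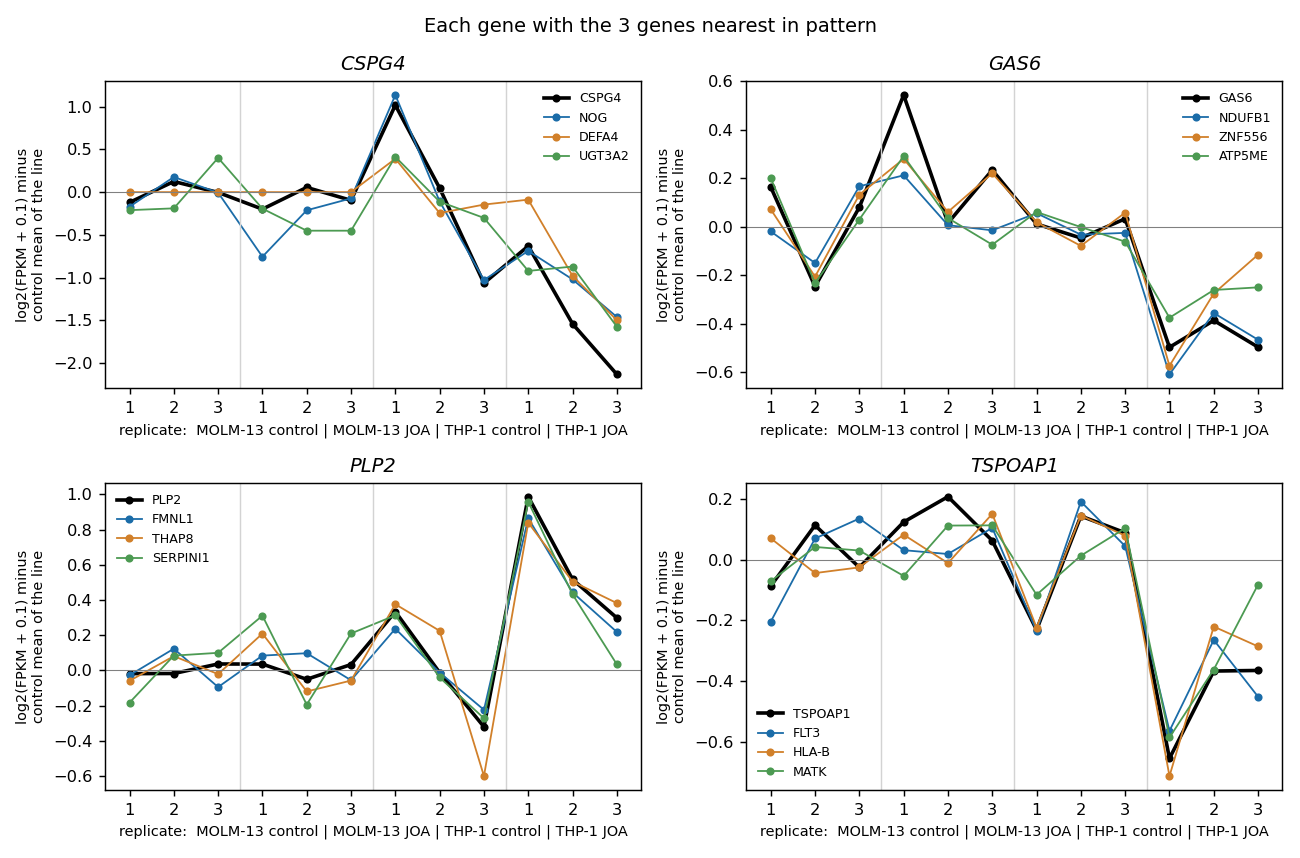
log2(FPKM + 0.1) minus the control mean of the same line (vertical axes) in the 12 libraries (horizontal axes, replicates 1 to 3 of each group, joined by lines only to guide the eye) for each of the 4 genes in black and its 3 nearest genes in color. The neighbours of PLP2 share its high THP-1 replicate 1, and those of TSPOAP1 share its low THP-1 JOA replicate 1. They were chosen for likeness over these same libraries, so the sharing is no separate result.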

How the data were processed

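The 12 libraries were stranded, poly(A)-selected and read as 150 bp paired ends. The authors deposited FPKM values per gene, scaled to gene length and mapped fragments, and the submitters' processing notes name Trimmomatic, HISAT2, Cufflinks, HTSeq and hg38 without saying which made the values. Their annotation and strand setting are not given in the sources used here. DESeq, the authors' test, needs counts and was not run.

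Groups came from the sample labels. Genes with a mean of at least 0.1 FPKM were fitted as log2(FPKM + 0.1) with limma 3.58.1 in R 4.3.3 (eBayes with trend, two-sided, Benjamini-Hochberg over all genes), with 4 group means for contrasts between lines and each line alone for JOA within it. Calls needed an adjusted p under 0.05, and for the line difference an absolute log2 change of at least 0.58 as well. For JOA within a line both rules were counted. The 4 genes, the gene lists and the marker lists were chosen with earlier results of these data known. Genes named were the 4, those called or just outside the threshold with pairing, the 3 nearest in pattern (mean of at least 1 FPKM), and direct partners or list genes called with pairing.

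Pairing used the replicate numbers of the labels. Deviations from group means correlated at 0.264 to 0.398 between same-numbered MOLM-13 libraries and at 0.139 to 0.319 in THP-1. For other numbers the correlation was at most 0.0168. Deviations sum to 0 within a group, so positive same-number values push the others down, and the low values are no separate support for pairing. Paired fits with the number as a block within line are given where they change a call. On simulated libraries of 12555 genes with a replicate effect, the interaction test recovered 91% of changes of log2 1 and 98% of log2 2 without the block, with 1 false call. With the block it recovered 93% and 99%, with 9 false calls. The changes were planted in 100 genes of each size, all with a mean of at least 1 FPKM. The rates therefore do not apply to smaller differences, to fewer changed genes or to lower levels. Gene models came from GENCODE on GRCh38. Values per fragment could not be read as whole numbers, so depth is unknown. Alternatives were other pseudocounts, filters, rescalings, no trend, 1 joint fit, the block, and leaving out each library or pair.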

Additional observations from a re-analysis of the deposited data

Results flagged for a closer look

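For 6 genes the JOA response differed between the lines by the paired interaction test of limma, which is the test that chose the 4 genes described above, so these are descriptions. The THP-1 response minus the MOLM-13 response was -1.35 for CSPG4, -0.72 for GAS6, -0.59 for TSPOAP1, 0.59 for PLP2, 0.71 for RFLNB and 0.83 for TRIB3 (log2). Dose differed with the line in all of them.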

How the results depend on the processing

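None of the called results reversed under the alternatives run. Genes called for the difference in response between the lines numbered 0 without pairing, 1 with a pseudocount of 1, 3 with any value above 0, and 6 with the replicate block. With the block there were 6, 0 and 0 without MOLM-13 pair 1, 2 or 3 and 2, 0 and 1 without THP-1 pair 1, 2 or 3. Genes called for JOA averaged over lines numbered 24, then 38 with a pseudocount of 1 and 697 with the replicate block. Leaving out a library gave 0 to 36, and leaving out a pair from the block 250, 192 and 299 for the MOLM-13 pairs and 129, 230 and 195 for the THP-1 pairs. JOA in THP-1 called 17 genes, 8 with a pseudocount of 1, 0 with any value above 0, 1 without the trend, 51 in a joint fit of both lines and 161 with the block. Without a library it called 0 to 1, and with the block without a pair 162, 207 and 222. JOA in MOLM-13 called 0, and 1 with any value above 0.

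Among the 4 genes, the averaged response had an adjusted p under 0.05 only with the block, the fit that chose the genes, so that this is no test of them. It was -0.76 for CSPG4, 0.30 for PLP2 and -0.17 for TSPOAP1, and without each of the 6 pairs it was -0.76, -0.76, -0.75, -0.70, -0.72 and -0.85 for CSPG4, 0.29, 0.31, 0.31, 0.29, 0.32 and 0.30 for PLP2, and between -0.19 and -0.15 for TSPOAP1. A pseudocount of 1 gave -0.32 for CSPG4 and leaving out THP-1 control replicate 1 gave -0.50. Leaving out THP-1 control replicate 1 moved the CSPG4 response in THP-1 from -1.43 to -0.93, and a pseudocount of 1 moved it to -0.58. Without THP-1 control replicate 3 it was -1.97. The line difference passed for all 4 genes under every alternative run, and that of CSPG4 was -2.51 with a pseudocount of 1. Rescaling to TPM moved the median of all genes in that contrast from 0.07 to 0.17. The cause of these changes was not tested.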
